A study of Rattus norvegicus with 9 samples.

Results

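Genes of extracellular nucleotide breakdown and purine sensing were examined in hepatic macrophages of rats with a narrowed portal vein. The set of 10 genes holds the ectoenzymes Enpp1, Entpd1 and Nt5e, the adenosine receptors Adora2a and Adora2b, the ATP-gated channels P2rx4 and P2rx7, and the nucleotide receptors P2ry6, P2ry12 and P2ry14. A gene was taken where the platform annotation gives a probeset that single symbol, and the probeset with the highest mean stood for the gene. This gave 9 of the 10 genes, of 18166 genes with such a probeset, and each of the 9 had 1 probeset. Entpd1 had none and is not analysed here. All 9 passed the filter on low mean signal (a mean log2 signal of at least 4.16), which 14014 genes passed. The genes were chosen by function with the differences from sham of an earlier analysis of these arrays known, among them the 10-day rise of Enpp1. That rise is therefore given as a description, and the p-values of the other genes place them among all genes tested and are not independent support.

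RNA came from hepatic macrophages of 9 male Sprague-Dawley rats, 1 array per rat, in 3 groups of 3: PPVL at 10 days, PPVL at 3 days, and sham, PPVL being partial ligation of the portal vein. In PPVL a ligature tied over a needle leaves the portal vein narrowed, a model of portal hypertension; sham rats had the same operation with no ligature. The labels give neither an age nor, for sham rats, a day, and the 2 days have no sham groups of their own, so day after surgery and the course after ligation cannot be told apart. The series follows the transcriptome of these cells over time, which gives 3 comparisons: 10 days against sham, 3 days against sham, and 10 against 3 days, the first 2 sharing the sham arrays. Array medians lay between 5.21 and 5.26 (log2) and 3 arrays per group set the precision. The macrophage markers, 7 of 7 tested, averaged 9.92 to 10.10 at 10 days, 10.09 to 10.21 at 3 days and 9.46 to 9.73 in sham. Those of Kupffer cells, the resident liver macrophages, 6 of 6 tested, averaged 4.67 to 4.71, 4.49 to 5.23 and 4.43 to 4.65 in the same order, near the filter. T cell markers (8 of 8 tested) averaged 8.76 to 9.0, 8.88 to 9.13 and 9.19 to 9.42 in that order. Natural killer cell markers (6 of 7 tested) averaged 10.16 to 10.24, 10.07 to 10.59 and 10.54 to 10.66. The isolates thus held RNA of other cells, and not only at low signals.

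Cells release ATP and other nucleotides when they are stressed or injured. ATP opens P2X channels and acts, with ADP, UTP, UDP and UDP-sugars, on P2Y receptors, which couple to G proteins. Ectoenzymes on the cell surface strip the phosphates in steps to AMP and then to adenosine, which acts on adenosine receptors that in macrophages are known for damping inflammatory output.

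The promoter sequences are shown for P2ry14, which had lower signals on every PPVL array than on every sham array, and for the neighbouring genes P2rx4 and P2rx7, whose 10-day differences from sham were 0.79 and 0.04 (log2), neither past the threshold. RefSeq's table for build GRCr8 held 6 of the 10 genes, and Enpp1, Adora2a, P2ry6 and P2ry12 are named only. Each sequence is the 250 bases before the gene's start, 5′ to 3′ on the gene's strand (minus for all 3). Capitals mark GAGGAA, a form of the site bound by PU.1, an ETS family factor of macrophages. Other forms of ETS sites were not searched and are not marked. P2ry14 lies at chr2:145538511-145538760, P2rx4 at chr12:39523090-39523339 and P2rx7 at chr12:39594923-39595172.
P2ry14: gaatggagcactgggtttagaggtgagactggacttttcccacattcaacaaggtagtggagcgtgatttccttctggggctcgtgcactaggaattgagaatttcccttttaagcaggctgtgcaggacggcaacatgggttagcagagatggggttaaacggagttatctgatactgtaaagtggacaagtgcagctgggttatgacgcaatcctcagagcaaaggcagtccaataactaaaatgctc
P2rx4: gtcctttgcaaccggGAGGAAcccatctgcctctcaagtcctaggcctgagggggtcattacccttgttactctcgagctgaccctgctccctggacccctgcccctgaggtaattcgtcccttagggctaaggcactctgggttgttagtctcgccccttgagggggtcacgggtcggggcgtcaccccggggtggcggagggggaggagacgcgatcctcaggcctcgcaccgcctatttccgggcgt
P2rx7: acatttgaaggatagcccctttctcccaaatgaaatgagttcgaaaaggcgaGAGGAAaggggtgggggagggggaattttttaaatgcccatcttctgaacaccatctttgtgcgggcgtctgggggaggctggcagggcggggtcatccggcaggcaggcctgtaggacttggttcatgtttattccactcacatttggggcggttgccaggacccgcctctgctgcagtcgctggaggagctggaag
GAGGAA, searched on both strands, occurred 1 time in the P2rx4 window and 1 time in the P2rx7 window, and it was not found in that of P2ry14. Of 33469 promoters of the same length, 23.3% hold it. The AP-1 site TGANTCA, which 6.34% of the promoters hold, and the cyclic AMP response element TGACGTCA, which 1.59% hold, were found in none of the 3 windows. The motifs do not overlap in letters. The P2rx4 window has 15 CpG dinucleotides, the P2rx7 window 9 and the P2ry14 window 5, and the median promoter has 5.

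Enpp1 was higher on all 6 PPVL arrays than on any sham array, and the nucleotide receptors P2ry12 and P2ry14 were lower on all 6. P2rx4 was higher on all 6 as well, most on 2 of the 3 arrays at 10 days. Nt5e, Adora2b, P2rx7 and P2ry6 had differences from sham of at most 0.15 in size at either day. In bulk RNA fewer cells of a type and less RNA per cell cannot be told apart, which holds for every value below.

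In the fit over 14014 genes 1 of the 9 passed at 10 days (Enpp1, higher), when 0.735% of all genes did, a count that the choice of Enpp1 used and from which nothing is read. At 3 days 1 of the 9 passed (P2ry12, lower), when 2.86% of all genes did. Between the days none of the 9 passed with limma, when 0.0714% of all genes did, and only P2rx4, 1 of the 9, had a p below 0.05 before adjustment (11.3% of all genes). The median difference of the 9 was 0.05 at 10 days against sham, where all genes tested had a median of -0.0004, and -0.13 at 3 days against sham, where all genes had -0.01. Before adjustment 4 of the 9 had a p below 0.05 at 10 days against sham (16.2% of all genes) and 4 at 3 days (15.5%). The PPVL and sham rats of 4 genes did not overlap at 10 days (21.0% of all genes) and those of 6 did not at 3 days (18.8%). The 10-day rats of 2 genes lay wholly above sham (9.88% of all genes) and those of 2 others wholly below (11.1%). At 3 days 3 lay wholly above sham (10.1%) and 3 wholly below (8.66%). The 10-day rats of 2 genes lay wholly above the 3-day rats (6.9%), and higher calls between the days were made for 0.0214% of all genes. Below, differences are log2 differences ± SE from limma's moderated fit, which had 3 rats in each group. The adjusted p is the Benjamini-Hochberg value of that fit over 14014 genes.

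**Figure D1:**
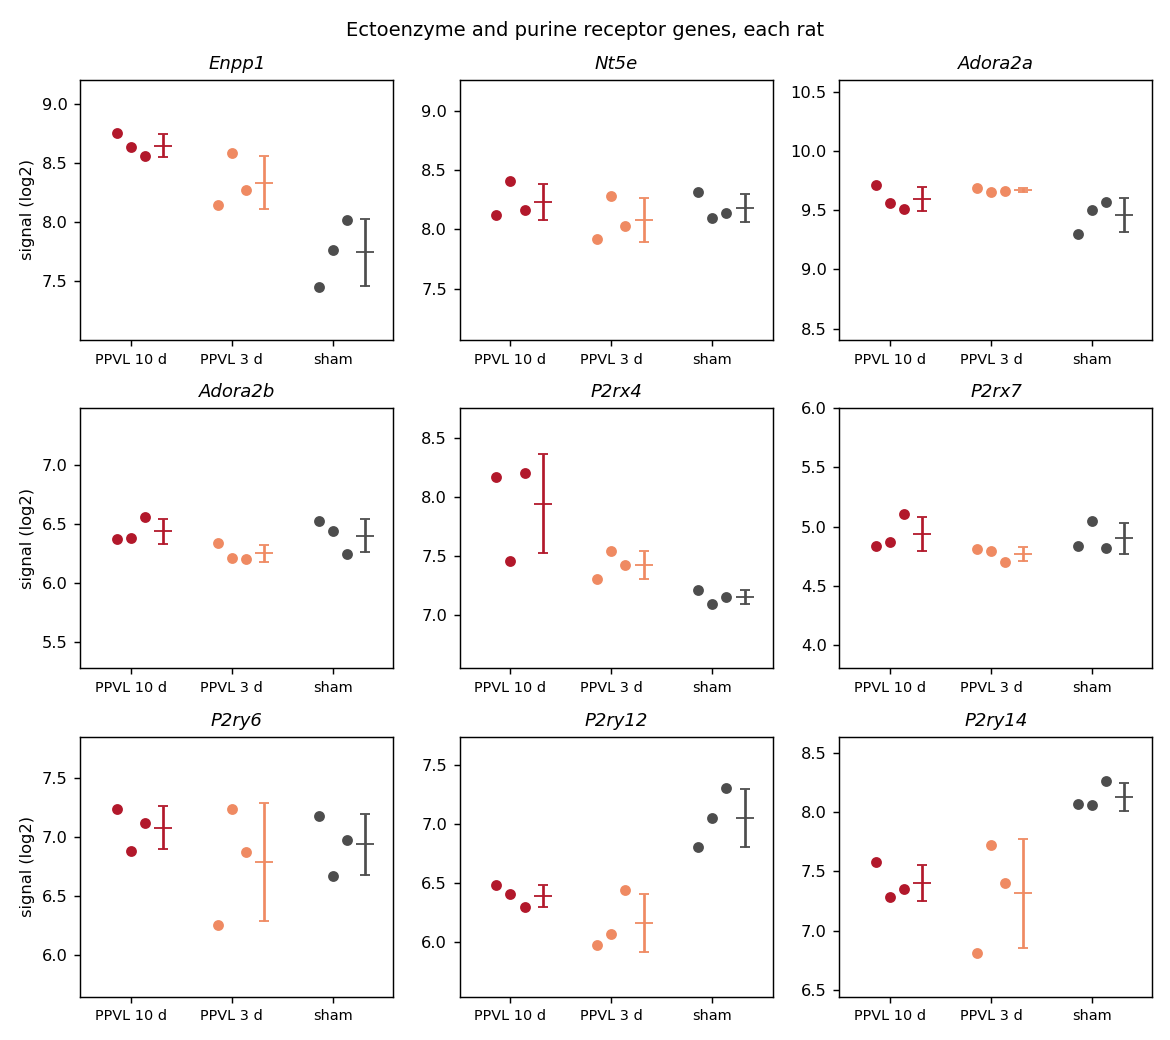
Each panel plots 1 gene; points are the log2 signal of single rats, bars the mean ± SD of 3 rats, and every vertical axis spans the same range of log2 units. Enpp1 and P2rx4 lie above all sham rats at both days, and P2ry12 and P2ry14 lie below them, while 10-day rat 2 of P2rx4 (7.46) stands among the 3-day rats.

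Enpp1 encodes an ectoenzyme that cleaves ATP to AMP and pyrophosphate and also degrades extracellular cyclic GMP-AMP. Its log2 signals were 8.75, 8.63 and 8.55 in 10-day rats, 8.14, 8.58 and 8.27 in 3-day rats, and 7.45, 7.76 and 8.01 in sham rats. Each PPVL rat was above each sham rat, while 10-day and 3-day rats overlapped. At 10 days the signal averaged 8.65 ± 0.10 against 7.74 ± 0.28 in sham (SD, n = 3 each), a difference of 0.90 ± 0.15 or 1.87-fold, which is the known rise. It stood past the threshold in the 3 fits that left out a 3-day rat and in none of the 6 that left out a sham or a 10-day rat (0.76 to 1.04). Of 10 other settings of the fit, 5 kept it past the threshold (0.79 to 1.08). All these fits use the arrays in which the rise was already known. They describe its dependence on single arrays and settings and are no support for it. At 3 days the difference was 0.59 ± 0.15 (1.5-fold, adjusted p = 0.0720), and it missed the threshold. It passed in 1 of the 10 other settings, with the platelet marker score as a covariate (0.81, adjusted p = 0.0262). It also passed in 1 of the 9 fits that left out 1 array, that without sham rat 3 (0.72, adjusted p = 0.0468). Over all these fits the 3-day difference was 0.44 to 0.81, with adjusted p up to 0.612. The 2 PPVL groups differed by 0.32 ± 0.15, 10 over 3 days (adjusted p = 0.465, 95% interval -0.02 to 0.65), and by -0.015 with the platelet score as a covariate. The mean of the B cell markers, 5 of 7 tested, was also higher in each PPVL rat than in any sham rat. It was 7.73 to 8.14 at 10 days, 7.63 to 8.09 at 3 days and 7.29 to 7.37 in sham (log2). Cr2 and Vpreb3 were called at 3 days, while Cd79b in 3-day rat 2 (8.69) was below sham rats 2 and 3 (8.86 and 8.73). The part of B cells in the Enpp1 values was not tested.

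Nt5e encodes the ecto-5′-nucleotidase that makes adenosine from AMP. Its signals were 8.13, 8.41 and 8.16 in 10-day rats, 7.92, 8.28 and 8.02 in 3-day rats, and 8.32, 8.10 and 8.14 in sham rats. The 3 groups overlapped. The difference from sham was 0.05 ± 0.11 at 10 days (95% interval -0.20 to 0.30) and -0.11 ± 0.11 at 3 days (-0.36 to 0.15), with adjusted p of 0.880 and 0.734. The 10-day interval lies below the 0.57 at which that of Enpp1 begins, but the rise of Enpp1 was known when the genes were chosen. The difference between Nt5e and Enpp1 was not tested.

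The adenosine receptors Adora2a and Adora2b both raise cyclic AMP, the first at lower adenosine concentrations. Adora2a had signals of 9.71, 9.56 and 9.51 in 10-day rats, 9.69, 9.66 and 9.67 in 3-day rats, and 9.30, 9.51 and 9.57 in sham rats. The 3-day rats lay close together (SD 0.02) and above each sham rat, and the 10-day rats overlapped with sham. The difference was 0.14 ± 0.08 at 10 days (adjusted p = 0.461) and 0.21 ± 0.08 at 3 days (adjusted p = 0.250). Adora2b had signals of 6.37, 6.38 and 6.55 in 10-day rats, 6.33, 6.21 and 6.20 in 3-day rats, and 6.52, 6.44 and 6.24 in sham rats. The 10-day rats were all above the 3-day rats, by 0.19 ± 0.09 (adjusted p = 0.462), and sham overlapped with both. Neither receptor passed in any of the 3 comparisons.

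P2rx4 encodes a channel that ATP opens, found on the surface and in the lysosomes of macrophages. Its signals were 8.16, 7.46 and 8.20 in 10-day rats, 7.30, 7.54 and 7.42 in 3-day rats, and 7.21, 7.09 and 7.15 in sham rats. All PPVL rats were above all sham rats, and among 10-day rats, rat 2 stood below the other two and within the range of the 3-day rats. At 10 days the signal averaged 7.94 ± 0.42 against 7.15 ± 0.06 in sham (SD, n = 3 each). The difference of 0.79 ± 0.17 (1.73-fold) did not pass (adjusted p = 0.0698), and without 10-day rat 2 it was 1.03 (adjusted p = 0.0153). With a covariate scoring T and natural killer cell markers it was 0.37 ± 0.47 (adjusted p = 0.990). T cell scores lay higher in each sham rat (0.11 to 0.34) than in any PPVL rat (-0.31 to 0.05). A fit with this covariate therefore cannot separate it from group. At 3 days the difference was 0.27 ± 0.17 (adjusted p = 0.518), and 0.01 ± 0.32 with that covariate. Between the days it was 0.52 ± 0.17, 10 over 3 days (adjusted p = 0.328), and 0.76 without 10-day rat 2 (adjusted p = 0.0419).

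P2rx7, the neighbouring gene of P2rx4 on chromosome 12, encodes the channel that high ATP opens and that is known to trigger the NLRP3 inflammasome. It had signals of 4.83, 4.87 and 5.10 in 10-day rats, 4.81, 4.80 and 4.70 in 3-day rats, and 4.83, 5.05 and 4.82 in sham rats. The 3-day rats were the lowest, with no overlap with either other group. The difference from sham was 0.04 ± 0.09 at 10 days (adjusted p = 0.897, 95% interval -0.17 to 0.24) and -0.13 ± 0.09 at 3 days (adjusted p = 0.558, -0.34 to 0.07). The 10-day interval lies below the 0.41 at which that of P2rx4 begins. The difference between the 2 genes was not tested, and the P2rx7 signals lie near the filter.

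P2ry12 encodes an ADP receptor best known from platelets, where antithrombotic drugs block it, and from microglia, the macrophages of the brain. Its signals were 6.48, 6.40 and 6.29 in 10-day rats, 5.97, 6.07 and 6.44 in 3-day rats, and 6.80, 7.05 and 7.30 in sham rats. Every PPVL rat was below every sham rat, and 3-day rat 3 lay among the 10-day rats. At 3 days the signal averaged 6.16 ± 0.25 against 7.05 ± 0.25 in sham (SD, n = 3 each), and it fell by 0.89 ± 0.14 (1.85-fold lower, adjusted p = 0.0128). The call held in 7 of the 9 fits that left out 1 array, and was lost without sham rat 2 (-0.89, adjusted p = 0.0505) and without 3-day rat 2 (-0.84, adjusted p = 0.0538). It was also lost with only the 2 groups in the fit (adjusted p = 0.0684) and with a covariate scoring T and natural killer cell markers (-1.07, adjusted p = 0.323). That covariate cannot be separated from group in these rats. At 10 days the difference from sham was -0.66 ± 0.14 (1.58-fold lower, adjusted p = 0.0705), which missed the threshold, and it passed without 3-day rat 3 (adjusted p = 0.0493). The 2 days differed by 0.23 ± 0.14, 10 over 3 days (adjusted p = 0.575).

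P2ry14 encodes the receptor for UDP-glucose and related UDP-sugars. Its signals were 7.58, 7.28 and 7.35 in 10-day rats, 6.81, 7.73 and 7.40 in 3-day rats, and 8.07, 8.06 and 8.27 in sham rats. The sham rats lay close together and above all PPVL rats, while the 3-day rats spread over more than the 10-day rats did. The difference from sham was -0.73 ± 0.19 at 10 days (1.65-fold lower, adjusted p = 0.109) and -0.82 ± 0.19 at 3 days (1.76-fold lower, adjusted p = 0.0586). Neither passed. Without 3-day rat 2, the highest of its group, the difference at 3 days was -1.02 (adjusted p = 0.0259), and without 3-day rat 1, the lowest, it was -0.57 (adjusted p = 0.0599). The 10-day difference passed in 1 of the 9 fits that left out 1 array, that without 3-day rat 1 (adjusted p = 0.0391, up to 0.266 in the others). It passed in 1 of the 10 other settings, only the 2 groups in the fit (adjusted p = 0.0421, up to 0.990 in the others). The 3-day difference passed in 1 of the 9 and in 2 of the 10.

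P2ry6, the receptor for UDP, is known in phagocytes for promoting uptake of debris. It had signals of 7.24, 6.88 and 7.12 in 10-day rats, 6.26, 7.24 and 6.87 in 3-day rats, and 7.18, 6.67 and 6.97 in sham rats. The groups overlapped, and the 3-day rats had the widest spread (SD 0.50). The difference from sham was 0.14 ± 0.23 at 10 days (95% interval -0.37 to 0.64) and -0.15 ± 0.23 at 3 days (-0.65 to 0.36), with adjusted p of 0.820 and 0.823. Without 3-day rat 1 the 3-day difference was 0.12.

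**Figure D2:**
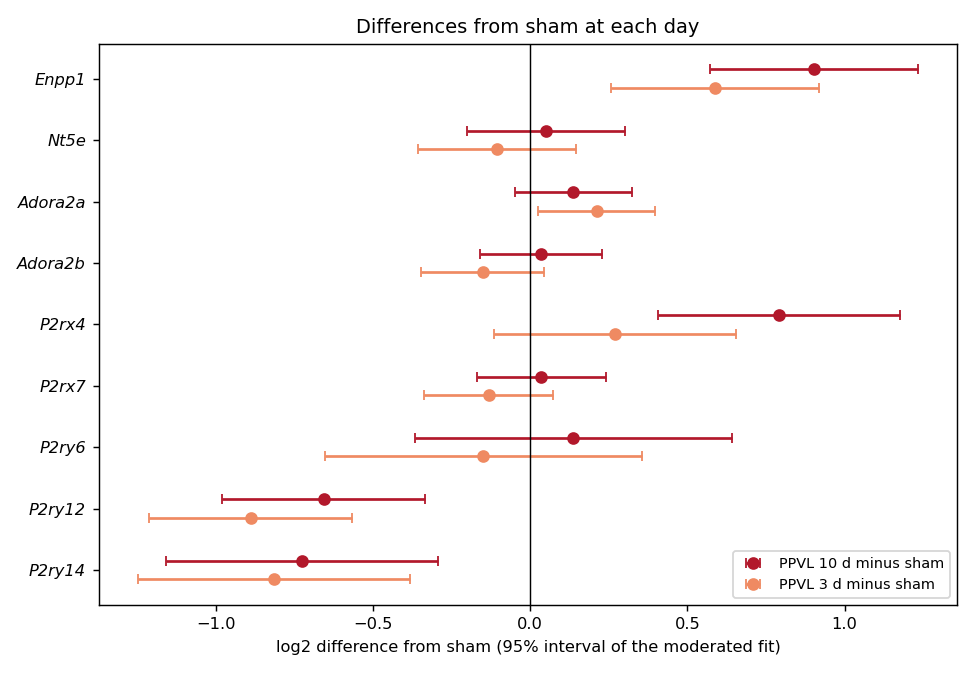
The horizontal axis is the log2 difference from sham and the rows are the genes; points are the differences at 10 days (dark) and 3 days (light), and bars the 95% intervals of the moderated fit, not adjusted for the number of genes. Enpp1 (0.90 and 0.59) lies right of 0 and P2ry12 (-0.66 and -0.89) and P2ry14 (-0.73 and -0.82) lie left of it at both days, and the intervals of Nt5e, Adora2b, P2rx7 and P2ry6 span 0.

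A list of 53 other genes of nucleotide release, breakdown, sensing and uptake, written with earlier results known, held 49 that passed the filter. At 3 days 6 of the 49 rose and none fell (2.15% and 0.714% of all genes). At 10 days none passed in either direction (0.492% and 0.243% of all genes), while 12 of the 49 were below 0.05 in limma before adjustment (16.2% of all genes). Between the days none passed either (0.0714% of all genes), and 10 of the 49 were below 0.05 before adjustment (11.3% of all genes). The median difference of the 49 was 0.03 at 10 days and 0.01 at 3 days.

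Among 14 other ectoenzymes 1 rose at 3 days, Enpp3, which like Enpp1 cleaves nucleotides to their monophosphates. Its signals were 9.46, 9.40 and 9.48 in 10-day rats, 10.14, 10.33 and 10.09 in 3-day rats, and 8.36, 8.88 and 8.98 in sham rats. The 3 groups did not overlap, with 3 days the highest. The rise at 3 days was 1.45 ± 0.14 (2.73-fold, adjusted p = 0.00228), and it passed in all 9 fits that left out 1 array. The difference at 10 days was 0.71 ± 0.14 (adjusted p = 0.0595) and passed in 4 of the 10 other settings, the 50th percentile filter, quantile normalization, an intensity trend and array weights. The 2 days differed by -0.74 ± 0.14, 10 minus 3 days (adjusted p = 0.172), and by the same -0.74 without sham rat 1, with adjusted p = 0.0154.

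Among 12 other receptors 1 rose at 3 days, P2ry2, which binds ATP and UTP and guides phagocytes to dying cells. Its signals were 9.15, 8.93 and 9.04 in 10-day rats, 9.33, 9.69 and 9.33 in 3-day rats, and 8.62, 8.48 and 8.64 in sham rats. The groups did not overlap. The rise at 3 days was 0.87 ± 0.10 (1.82-fold, adjusted p = 0.00376), and the difference at 10 days was 0.46 ± 0.10 (adjusted p = 0.0740).

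Of 11 genes of nucleoside uptake and purine metabolism, 3 rose at 3 days. Ampd3, which deaminates AMP, rose by 1.05 ± 0.15 (2.06-fold, adjusted p = 0.00840), and Slc28a2, which carries purine nucleosides into the cell with sodium, rose by 0.75 ± 0.10 (adjusted p = 0.00507). Pnp, the purine nucleoside phosphorylase, was higher by 0.37 ± 0.08 (adjusted p = 0.0481), and none of the 9 fits without 1 array kept this call (adjusted p up to 0.155). At 10 days Ampd3 differed from sham by 0.50 ± 0.15, Slc28a2 by 0.36 ± 0.10 and Pnp by 0.15 ± 0.08, with adjusted p of 0.150, 0.118 and 0.424. All 3 genes had higher signals in each 3-day rat than in any 10-day or sham rat. The call of Ampd3 was lost with only the 2 groups in the fit (adjusted p = 0.0502).

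Of 7 inflammasome genes that act after P2X7, Nlrp3, the sensor of the complex, rose at 3 days by 0.65 ± 0.13 (adjusted p = 0.0355). The call held in 1 of 9 fits without 1 array (adjusted p up to 0.120). Of 5 genes of nucleotide release and export none passed with limma at 10 or at 3 days (0.735% and 2.86% of all genes), and 2 of the 5 were below 0.05 before adjustment at each day (16.2% and 15.5% of all genes). The smallest p belonged to Slc17a9, the transporter that loads ATP into vesicles, at 0.35 ± 0.08 at 10 days (adjusted p = 0.0705) and 0.30 ± 0.08 at 3 days (adjusted p = 0.0772). Every PPVL rat was above every sham rat for this gene. With the covariate of T and natural killer cell markers none of these calls passed, while the 3-day differences were 1.33 ± 0.28 for Enpp3, 1.06 ± 0.19 for P2ry2, 1.16 ± 0.29 for Ampd3, 0.71 ± 0.19 for Slc28a2, 0.40 ± 0.16 for Pnp and 0.80 ± 0.25 for Nlrp3, with larger SEs than without it. Slc17a9 then differed by -0.027 ± 0.18 at 10 days and 0.077 ± 0.12 at 3 days. The part of this covariate and that of group cannot be told apart in these fits. Neutrophil markers, 7 of 7 tested, averaged 7.17 to 7.6 at 10 days, 7.56 to 8.13 at 3 days and 6.71 to 7.51 in sham. The lowest sham value was that of sham rat 1, with a score of -0.80 against -0.07 and -0.0056 in sham rats 2 and 3. This rat also had the lowest sham signals of Enpp3, Ampd3, Slc28a2, Pnp and Nlrp3, but not of P2ry2 or Slc17a9. Fcnb (1.23 ± 0.18, adjusted p = 0.0103) and Csf3r were called at 3 days. S100a8 (1.19) and S100a9 (1.20) were higher without a call, while Camp (0.12), Elane (0.03) and Mpo (-0.04) stayed near sham. The part of neutrophils in these values was not tested.

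**Figure D3:**
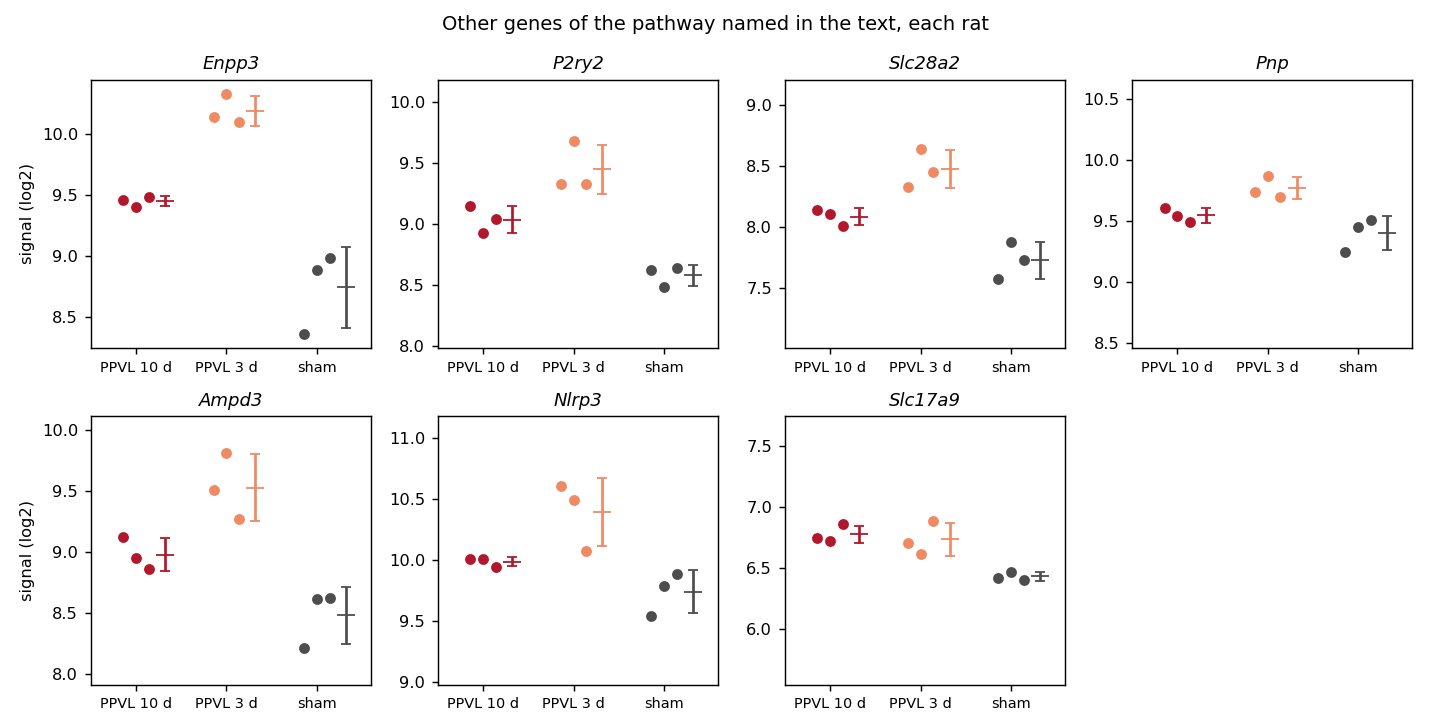
Each panel plots 1 gene of the wider pathway; points are the log2 signal of single rats, bars the mean ± SD of 3 rats, and every vertical axis spans the same range of log2 units. In Enpp3, P2ry2, Slc28a2, Pnp, Ampd3 and Nlrp3 all 3-day rats lie above all 10-day and all sham rats, and in Slc17a9 both PPVL groups lie above sham.

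Several of these genes are neighbours in the rat genome (RefSeq GRCr8), a comparison chosen after their values were seen. Enpp3 and Enpp1 lie next to each other on chromosome 1, and both had higher signals in each PPVL rat than in any sham rat. Enpp3 had its highest signals at 3 days in all 3 rats, while Enpp1 averaged 8.65 at 10 days and 8.33 at 3 days, a difference that did not pass. P2ry6 and P2ry2 also lie next to each other on chromosome 1. Their 3-day differences from sham were -0.15 ± 0.23, which did not pass, and 0.87 ± 0.10, which did, and the 2 genes were not tested against each other. P2ry12 lies next to P2ry13, another ADP receptor gene, on chromosome 2, which also holds P2ry14. P2ry13 had signals of 8.25, 8.03 and 7.72 in 10-day rats, 8.03, 8.68 and 7.96 in 3-day rats, and 7.83, 8.19 and 8.41 in sham rats, which overlapped throughout. Its difference from sham was -0.15 ± 0.21 at 10 days (95% interval -0.63 to 0.33) and 0.08 ± 0.21 at 3 days (-0.40 to 0.56). The 3-day difference of P2ry12 was -0.89 ± 0.14 (-1.21 to -0.57). P2ry13 was chosen after its values were seen, and the difference between P2ry12 and P2ry13 was not tested.

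**Figure D4:**
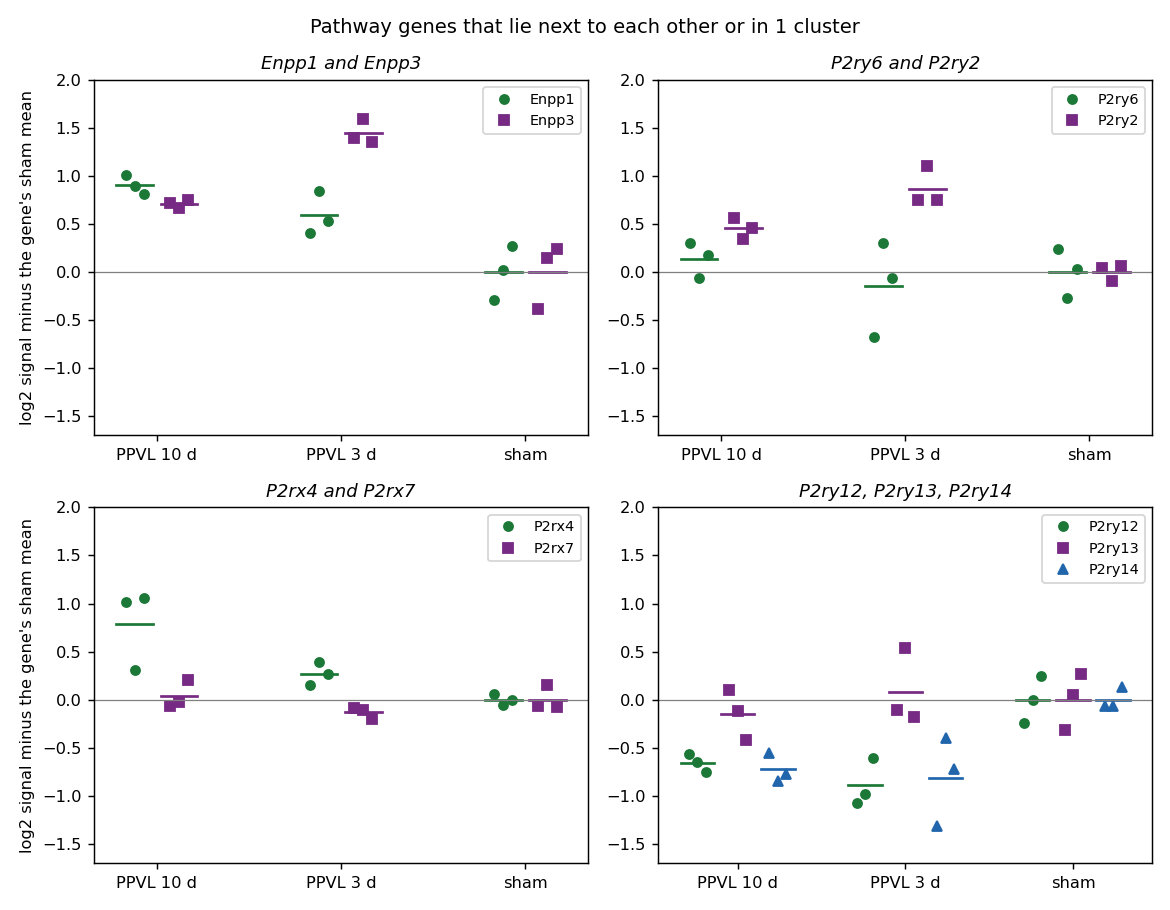
The vertical axis is the log2 signal minus the gene's own sham mean; points are single rats, lines group means, and each panel holds genes that lie next to each other or, for P2ry14, in the same cluster. The mean differences from sham are 0.79 for P2rx4 and 0.04 for P2rx7 at 10 days, and -0.89 for P2ry12, -0.82 for P2ry14 and 0.08 for P2ry13 at 3 days; of these only that of P2ry12 passed, and differences between genes were not tested.

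The genes with the profile most like that of Enpp1 over the 9 arrays, by the root mean square difference between gene-centred log2 signals, were Myof (0.089), Arhgap22 (0.14), Crybg3 (0.16), Zfyve9 (0.17) and Rab7b (0.17). The root mean square of Enpp1 about its own mean was 0.41. For P2ry12, with 0.41 as well, they were Padi2 (0.11), Gprc5a (0.13), Paqr5 (0.14), Slc46a3 (0.14) and Depdc7 (0.14). At 3 days Padi2 differed from sham by -0.81, Gprc5a by -0.71 and Paqr5 by -1.16, beside -0.89 for P2ry12. These genes were picked for their likeness, so their values are a description.

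Markers of cell types moved with the same groups. The macrophage score, the mean of centred log2 signals over 7 genes, was higher than sham by 0.40 at 10 days and 0.56 at 3 days, led by the integrin Itgam (0.78 ± 0.11, adjusted p = 0.0414, and 0.89 ± 0.11, adjusted p = 0.00392). This score averaged highest at 3 days, as did the signals of Enpp3, P2ry2 and Ampd3, but 10-day rat 3 (0.173) scored above 3-day rat 1 (0.168). Of its genes Adgre1 (0.33 ± 0.12) and Csf1r (0.10 ± 0.15) were higher at 10 than at 3 days and 5 were lower. None of the 7 was called between the days. The dendritic cell score, over 5 of 6 genes, differed from sham by -0.20 at 10 days and -0.44 at 3 days, beside the lower P2ry12 and P2ry14. Its genes averaged 7.20 to 7.34 at 10 days, 6.95 to 7.14 at 3 days and 7.44 to 7.49 in sham, and at 3 days Flt3 (-1.12 ± 0.18, adjusted p = 0.0116) and Clec9a fell. The T cell score, over 8 of 8 genes, differed by -0.45 at 10 days and -0.30 at 3 days, with mean signals of 8.76 to 9.0, 8.88 to 9.13 and 9.19 to 9.42 in 10-day, 3-day and sham rats, and Cd5 fell at 10 days (-0.58 ± 0.10, adjusted p = 0.0449). The natural killer cell score, over 6 of 7 genes, differed by -0.42 at 10 days and -0.22 at 3 days, with none of its genes called by limma (4 and 1 of the 6 below 0.05 before adjustment). The part of these cells in the results was not tested.

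Platelets carry P2ry12, so their markers are given beside it. The platelet score, over 6 of 8 genes, stood at -0.37, -0.47 and -0.10 for 10-day rats 1 to 3, at 0.62, -0.18 and 0.71 for 3-day rats, and at 0.10, -0.23 and -0.09 for sham rats. The platelet genes averaged 5.90 to 6.26 at 10 days, 6.19 to 7.08 at 3 days and 6.14 to 6.46 in sham. At 3 days P2ry12 was lower while the platelet score was higher than sham by 0.46. With the platelet score as a covariate the P2ry12 difference at 3 days was -0.91 (adjusted p = 0.0415). The part of platelets in the P2ry12 values was not tested.

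**Figure D5:**
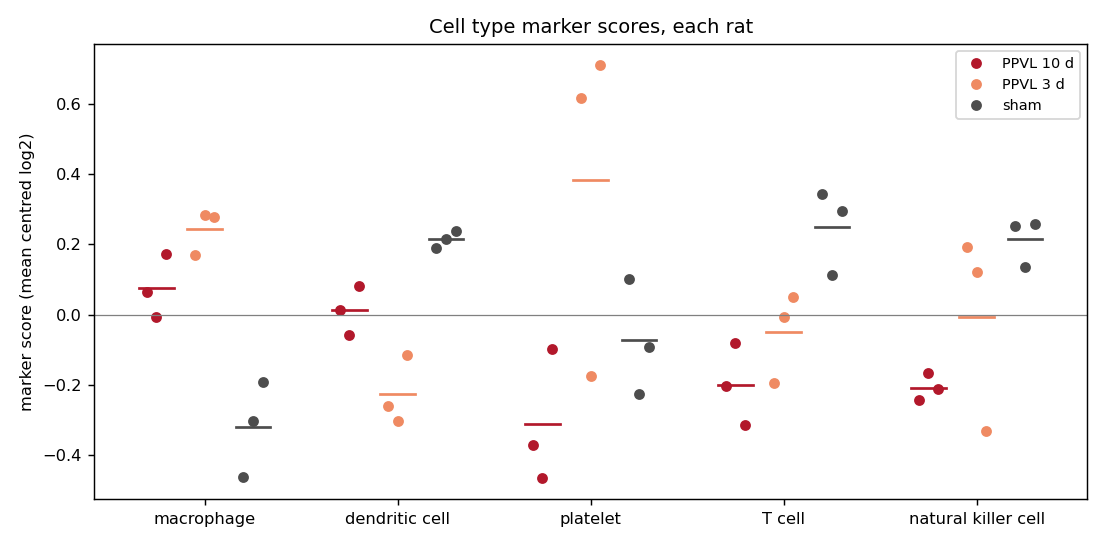
The vertical axis is the marker score, the mean over a list's genes of the log2 signal minus the gene's mean over 9 arrays; points are single rats and lines group means. The dendritic cell scores of all PPVL rats lie below those of sham and the macrophage scores above, while 3-day rat 2 (-0.18) stands apart from the other 3-day rats in the platelet score.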

How the data were processed

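Total RNA of hepatic macrophages was labelled with biotin and read on 1-colour Affymetrix arrays, 1 per rat. Per the submitters' processing notes the authors made the deposited log2 values with Transcriptome Analysis Console and RMA; versions and genome build are not given in the sources used here. No value was missing, and nothing was normalized again. Of 36685 probesets, 18511 had 1 symbol in the platform annotation, 575 several and 17599 none. The highest-mean probeset stood for a gene, and genes were tested whose mean reached the 30th percentile of probesets (4.16).

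A linear model of the 3 groups was fitted to all 9 arrays with limma 3.58.1 in R 4.3.3, with a 2-sided moderated test, Benjamini-Hochberg adjustment and a threshold of 0.05. An exact permutation test of 3 against 3 rats cannot go below p = 0.1. The procedure was tested on simulated data. Genes named from the wider list are those past the threshold and the smallest p of each role group; for Enpp1 and P2ry12, the called members, the 5 most similar genes are named, and for marker lists set beside a member the smallest p where a gene was called. P2ry13 and the further marker genes were chosen after their values were seen. The members, lists and alternatives (filters, mean of probesets, quantile normalization, trend, array weights, replicate block, 2 groups only, marker scores as covariates, leaving out each array) were chosen with earlier results of these data known. Replicates are separate rats per the labels. GEO's labels give no batch.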

Additional observations from a re-analysis of the deposited data

How the results depend on the processing

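The count of called genes at 10 days against sham (103) was 0 with no filter, 173 with the 50th percentile filter, 170 with quantile normalization, 173 with an intensity trend, 197 with array weights, 61 with only the 2 groups, 0 with a score of T and natural killer cell markers (the lymphocyte score), 25 with the platelet score and 0 to 140 without 1 array. The count at 3 days against sham (401) was 134 with only the 2 groups, 0 with the lymphocyte score and 190 to 327 without 1 array. Between the days (10 calls) it was 3 with only the 2 groups, 0 with either score and 0 to 18 without 1 array. Deviations of same-numbered rats from their group means had correlations over genes of -0.095 to 0.084 (0 of 9 over 0.1). Those of differently numbered rats were -0.13 to 0.17. With 3 rats per group this cannot show whether same-numbered rats shared a day or a batch. With the replicate number as a block the counts were 264 at 3 days, 0 at 10 days and 0 between the days; Nlrp3 and Pnp at 3 days (adjusted p = 0.0757 and 0.0919) were then not called. Where a count was 0, 619 to 2498 genes passed the unadjusted threshold of 0.05 in limma. The T cell score was higher in each sham rat than in any PPVL rat, so fits with the lymphocyte score cannot separate it from group. The cause of these changes was not tested.

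Some differences that had not passed changed sign. At 3 days against sham, Nt5e was 0.25 and P2ry6 0.17 with the lymphocyte score, 0.021 and 0.030 with the platelet score, and P2ry6 was -0.37 to 0.12 without 1 array. At 10 days against sham, P2rx7 was -0.020 with array weights and -0.28 with the lymphocyte score, with which Adora2b was -0.10 and Slc17a9 -0.027; Nt5e was -0.017 with the platelet score. Without 1 array, Nt5e was -0.039 to 0.12, Adora2b -0.043 to 0.095 and P2rx7 -0.048 to 0.11. Between the days, Enpp1 was -0.015, Nt5e -0.038 and P2ry14 -0.28 with the platelet score, Slc17a9 was -0.10 with the lymphocyte score, and without 1 array P2ry14 was -0.16 to 0.29 and Slc17a9 -0.019 to 0.12. The 3 rats per group limit what could be detected, and P2rx7, near the filter, was not tested with the 50th percentile filter.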

Other observations

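Some of these receptors varied more among the rats of 1 group than among those of the others. Among 3-day rats, rat 1 had the lowest and rat 2 the highest signal of P2ry6 (6.26 and 7.24), P2ry14 (6.81 and 7.73) and P2ry1 (6.88 and 7.91), an ADP receptor gene. In sham and 10-day rats the same genes spread less, with an SD of 0.18 in 10-day rats and 0.26 in sham rats for P2ry6, against 0.50 in 3-day rats. P2rx4 showed its spread at 10 days instead (SD 0.42, against 0.12 at 3 days and 0.06 in sham). These genes were chosen after their values were seen.

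Il1b and Il18 encode cytokines that the inflammasome matures. At 3 days Il1b differed from sham by 0.36 ± 0.12 (adjusted p = 0.175) and Il18 by -0.42 ± 0.11 (adjusted p = 0.0713), and neither passed in the fit of limma. The Il18 signals of all 3-day rats (7.95 to 8.30) were below those of sham rats (8.42 to 8.67). Bst1, an ectoenzyme that uses NAD, differed by 0.84 ± 0.22 at 3 days (adjusted p = 0.0899), and its signal in sham rat 1 (6.68) was below those of the other sham rats (7.58 and 7.55).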
